A study of Mus musculus with 8 samples.

Results

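The genes described here sense damaged DNA, stop the cell cycle at a checkpoint and repair breaks and crosslinks. They were taken from a list of 39 names: 7 checkpoint kinases and their partners, 6 sensors and mediators of the break response, 12 homologous recombination genes, 7 Fanconi anaemia pathway genes, 5 end-joining genes and 2 mismatch repair genes. Of these, 38 were measured, by 49 probes, among 33627 genes and unnamed features tested on the array; Rad51c had no matched probe and is not analysed here. The symbol Claspn was matched as Clspn. The list was not chosen by a threshold on measured values, but earlier results of these data were known when it was chosen.

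RNA was measured in mesonephric tubules, microdissected from toluidine blue stained frozen sections of mouse embryos of strain C57/BL6. The mesonephros is a transient embryonic kidney, and the series is titled for programmed cell senescence in the embryo. The groups were wild type, with 5 arrays, and p21 knockout (p21-/-) by label, with 3 arrays, each hybridised in 1 colour (Cy3) with 1 sample. Embryonic stage and the construction of the p21 allele are not given in the labels, and whether each array holds a different embryo is not stated; p-values then cover the spread among these 8 samples, which may be technical.

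A blocked replication fork exposes single-stranded DNA, which recruits the kinase ATR; a broken DNA end recruits the MRE11-RAD50-NBS1 complex and the kinase ATM. Both kinases act through CHEK1 and CHEK2 and, through p53, induce p21, the cyclin-dependent kinase inhibitor that Cdkn1a encodes and that enforces arrest. Breaks are then joined directly by the Ku, DNA-PK and ligase IV proteins, or copied from the sister chromatid by BRCA1, BRCA2, PALB2 and their partners, a route open only after replication. Many recombination genes are transcribed mainly in cycling cells, under E2F transcription factors in late G1 and S phase.

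Values are log2 signals of the array spots minus the 75th percentile of that array, so 0 is the level of a fairly bright spot; a difference of 1 is 2-fold. Differences are labelled p21-null minus wild type throughout. Levels of different probes are not set against each other. The 8 arrays lay on 3 slides, each with both groups. On each array 82.2% to 89.2% of probes were well above background, no spot was saturated, and pairs of arrays correlated between 0.849 and 0.945. Precision is limited by the number of arrays. The 2 probes for Cdkn1a did not bear out the label. On the main probe, in wild-type replicates 1 to 5, the signal was 2.49, 2.52, 0.44, 1.85 and 1.11, and in the 3 others 2.11, 0.96 and 1.40 (difference −0.19, SE 0.54, limma adjusted p = 0.950). The other probe had means of −1.57 (wild type) and −1.81, a difference of −0.24. Whether either lies in the deleted part of Cdkn1a is not given in the sources used. Every direction below therefore rests on the label. In tissue cut from sections, fewer cells of a type and less RNA per cell cannot be told apart.

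Most repair and checkpoint genes had a higher mean signal in the arrays labelled p21-null, without any of them passing the adjusted threshold. Of 38 measured genes, 33 had a positive difference, where 47.6% of all features did, and 5 a negative one. The median difference was 0.54, against −0.03 over all features. In limma, 12 genes were higher at an unadjusted p under 0.05, against 6.2% of all features, and 0 were lower, against 3.91%. In 11 genes all 3 arrays labelled p21-null exceeded all 5 wild-type arrays, an arrangement found in 4.4% of features; the opposite arrangement was found in 2.42% of features and in 0 of these genes. After Benjamini-Hochberg adjustment over all features 0 genes passed 0.05, as did 0% of all features, and the smallest adjusted p was 0.284, for Bard1.

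**Figure D1:**
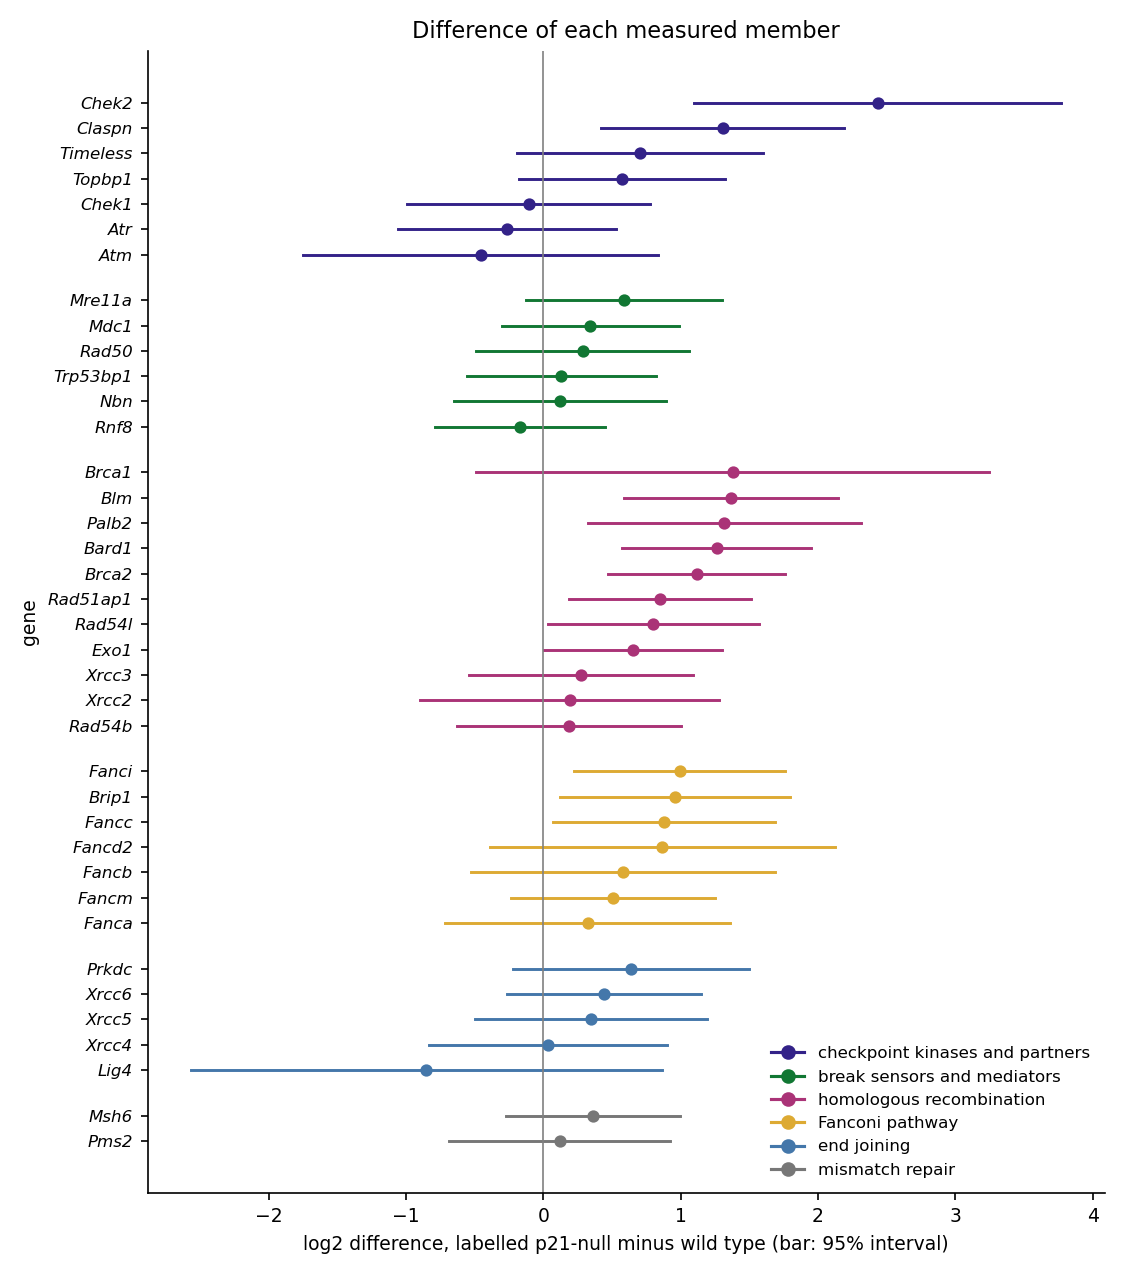
The log2 difference of each measured gene, labelled p21-null minus wild type, with its 95% interval from limma, ordered by role and coloured by pathway. The intervals of 26 of 38 genes include 0; all 11 homologous recombination genes and all 7 Fanconi genes lie to the right of 0.

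Counts and medians were uneven between roles. All 11 measured homologous recombination genes had a positive difference (median 0.85) and 7 were higher at an unadjusted p under 0.05. The 7 Fanconi genes were also all positive (median 0.87), with 3 higher at that level. Among the 7 checkpoint genes 4 were positive, 2 of them at that level. The 6 break-response genes (median 0.21), the 5 end-joining genes (median 0.35) and the 2 mismatch repair genes (median 0.24) included 0 genes at that level. Over all features 6.2% were higher at that level, so 0 genes in groups of this size does not set those roles apart. These role groups were not tested against each other.

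The promoters of 3 of the genes that were higher at an unadjusted p under 0.05 hold a sequence word of the E2F type upstream of the transcription start, and so do 3 promoters of genes that did not reach that level; they are shown because many of these genes are known as E2F targets. The stretches are from RefSeq, build GRCm38.p6, written along the strand of the gene, with the word in capitals.
Bard1 (chr1:71103144-71103211, minus strand): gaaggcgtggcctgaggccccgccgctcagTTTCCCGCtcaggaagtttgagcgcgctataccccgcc
Brca2 (chr5:150522423-150522490, plus strand): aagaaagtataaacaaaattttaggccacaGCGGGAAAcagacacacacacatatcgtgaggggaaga
Chek2 (chr5:110839801-110839868, plus strand): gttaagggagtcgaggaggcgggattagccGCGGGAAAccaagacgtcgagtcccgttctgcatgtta
Topbp1 (chr9:103305168-103305235, plus strand): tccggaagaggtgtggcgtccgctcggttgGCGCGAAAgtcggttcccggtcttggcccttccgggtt
Xrcc6 (chr15:82016293-82016360, plus strand): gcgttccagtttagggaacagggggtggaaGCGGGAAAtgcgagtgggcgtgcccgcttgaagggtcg
Mdc1 (chr17:35841452-35841497, plus strand): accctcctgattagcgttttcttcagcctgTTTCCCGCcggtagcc

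RefSeq gave a window from 250 bases before to 50 bases after the start for 32 of the 39 listed genes. The words searched for E2F were TTTCCCGC, TTTCGCGC, TTTGCCGC and TTTGGCGC on both strands; 9 of the 32 genes hold one (28.1%), against 2.60% of 27025 genes with a window. CCAAT, the box bound by NF-Y, was in 21 of 32 (65.6%), against 41.1%. TTTGAA, the word of the cell cycle homology region found in mitotic promoters, was in 2 of 32 (6.25%), against 20.2%. A promoter was counted once however many words it held. Besides the 6 shown, the word lies at or after the start in Claspn, Msh6 and Rad51c. Among measured genes with a window, an E2F word was in 4 of the 11 at an unadjusted p under 0.05 and in 4 of the 20 others. The CCAAT word was in 8 of those 11 and in 13 of those 20. A match is a description of the letters, not a bound site.

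Among the checkpoint genes Chek2 and Claspn had the largest positive differences, while the apical kinase genes Atm and Atr had negative ones. Chek2 encodes the kinase that ATM activates at breaks. In wild type it read −5.45, −4.25, −4.84, −3.64 and −2.98, here and below in the order of replicates 1 to 5, with −1.71, −2.60 and −1.08 in the arrays labelled p21-null, in the order 1 to 3. The groups did not overlap, although labelled p21-null replicate 2 lay only slightly above wild-type replicate 5. The difference of 2.44 (SE 0.59), or 5.41-fold, was the largest of the 38 genes (limma adjusted p = 0.287). Its size varied between settings, from 1.27 to 3.05 over the alternatives, and the cause was not tested. Wild-type replicate 1 lay close to the dimmest spot counted as well above background on that array, −5.60. With another background correction (normexp), run on median intensities with an offset of 50, the difference was 1.88. An exact two-sided permutation test over the 56 splits of the arrays gave p = 0.0357. The exact p-values given for single genes are not corrected for the number of genes examined.

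Claspn encodes claspin, the fork adaptor through which ATR activates CHEK1. Its wild-type values were −2.64, −1.86, −1.94, −1.70 and −1.04, and its labelled p21-null values −0.41, −0.98 and −0.20. Labelled p21-null replicate 2 exceeded wild-type replicate 5 by a small margin and all other gaps were wider. The difference was 1.31 (SE 0.39; limma adjusted p = 0.325; exact permutation p = 0.0179).

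The remaining checkpoint genes overlapped between groups. Timeless, which travels with claspin at the fork, differed by 0.70 (SE 0.40; limma adjusted p = 0.623) on its main probe and by 0.77 on its other probe. Topbp1, the activator of ATR, differed by 0.57 (SE 0.33; limma adjusted p = 0.630). Both had labelled p21-null means above the wild-type mean with intervals that include 0.

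The kinase genes Atr, Chek1 and Atm had negative differences, none beyond the replicate spread. Atr differed by −0.26 (SE 0.35; limma adjusted p = 0.878) and Chek1, the effector kinase of ATR, by −0.11 (SE 0.39; limma adjusted p = 0.964). Atm read −3.03, −2.65, −2.81, −1.004 and −2.70 in wild type and −4.00, −2.14 and −2.55 in the arrays labelled p21-null. Wild-type replicate 4 was high and labelled p21-null replicate 1 low, the groups overlapped, and the difference was −0.46 (SE 0.57; limma adjusted p = 0.867). A further Atm probe differed by 0.14, so the 2 probes disagree in sign.

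Genes of the first response at a break had intervals that include 0. Mre11a, the nuclease of the MRE11-RAD50-NBS1 complex, had the lowest p of this group. It read 0.72, 0.67, 0.27, 0.61 and 1.32 in wild type and 1.58, 1.02 and 1.32 in the arrays labelled p21-null. Its groups overlapped at wild-type replicate 5, and the difference was 0.59 (SE 0.31; limma adjusted p = 0.601). Its partners Rad50 and Nbn differed by 0.29 (SE 0.34) and 0.12 (SE 0.34).

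The chromatin mediators also had intervals that include 0. Mdc1, the scaffold that binds phosphorylated histone H2AX, differed by 0.34 (SE 0.28; limma adjusted p = 0.775). Trp53bp1, whose p53-binding protein protects ends from resection, differed by 0.13 (SE 0.30) on its main probe and by −0.03 on the other. Rnf8, the ubiquitin ligase recruited by MDC1, was the only gene of this group with a negative difference, −0.17 (SE 0.27; limma adjusted p = 0.902).

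In homologous recombination 5 genes differed by more than 1 on the log2 scale: Brca1, Blm, Palb2, Bard1 and Brca2. Bard1 encodes the partner without which BRCA1 is unstable. It read −0.54, −0.90, −1.27, −0.97 and −0.62 in wild type and −0.02, 0.57 and 0.66 in the arrays labelled p21-null. No values overlapped, and the gap between the highest wild-type array and the lowest labelled p21-null array exceeded the wild-type SD of 0.29. The difference was 1.26 (SE 0.30), or 2.40-fold (limma adjusted p = 0.284); the exact permutation test gave p = 0.0179, the smallest that 56 splits allow. Its other probes differed by 0.78 and 2.25.

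Brca2, a mediator that acts on resected ends, had within-group SDs of 0.24 (wild type) and 0.30. Its wild-type values were 0.93, 0.39, 0.52, 0.36 and 0.35, and its labelled p21-null values 1.87, 1.29 and 1.72. All 3 arrays labelled p21-null exceeded all 5 of wild type, with a difference of 1.12 (SE 0.28), or 2.17-fold (limma adjusted p = 0.289; exact permutation p = 0.0179). Palb2, which bridges BRCA1 and BRCA2, read −1.01, −1.57, −2.83, −0.94 and −1.64 against −0.20, −0.44 and −0.21. Its groups were apart, with wild-type replicate 3 the lowest, and the difference was 1.32 (SE 0.44; limma adjusted p = 0.371; exact permutation p = 0.0357). A further Palb2 probe differed by 2.13.

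Brca1 itself, the ubiquitin ligase and scaffold of this pathway, had a wider spread and was not among the 12. It read 0.35, −0.81, −3.22, 0.53 and 0.34 in wild type and 1.33, 0.24 and 0.88 in the arrays labelled p21-null. Wild-type replicate 3 stood far below the other arrays, and labelled p21-null replicate 2 lay within the wild-type range. The difference was 1.38 (SE 0.83; limma adjusted p = 0.647), and 0.71 without wild-type replicate 3.

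The set also holds a helicase and a nuclease of recombination. Blm encodes the Bloom helicase, which dissolves joint molecules and helps to resect ends. It read −1.23, −1.39, −1.15, −0.87 and −1.36 in wild type and 0.57, −0.60 and 0.53 in the arrays labelled p21-null. The wild-type arrays lay close together and labelled p21-null replicate 2 was nearer to them than the other two; the difference was 1.37 (SE 0.34), or 2.58-fold (limma adjusted p = 0.288; exact permutation p = 0.0179). Exo1, the resection exonuclease that also serves mismatch repair, read −0.73, −0.57, −1.35, −0.95 and −0.57 against −0.22, −0.24 and −0.10. Its labelled p21-null values were nearly equal and all above wild type, with a difference of 0.65 (SE 0.29; limma adjusted p = 0.491; exact permutation p = 0.0357).

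Among the remaining genes, Rad51ap1, a stimulator of strand invasion, read 0.91, 1.12, 0.62, 1.50 and 1.21 in wild type and 2.02, 1.71 and 2.04 in the arrays labelled p21-null. The groups did not overlap and differed by 0.85 (SE 0.29; limma adjusted p = 0.387; exact permutation p = 0.0179). Rad54l, a DNA-dependent motor protein of recombination, read 1.35, 0.62, 0.27, 0.67 and 0.65 against 1.92, 1.06 and 1.56. It was the only gene of the 12 whose groups overlapped, wild-type replicate 1 standing above labelled p21-null replicate 2; the difference was 0.80 (SE 0.34; limma adjusted p = 0.473; exact permutation p = 0.0357). Its relative Rad54b differed by 0.19 (SE 0.36), and the recombination genes Xrcc2 and Xrcc3 by 0.19 (SE 0.48) and 0.27 (SE 0.36). A further Xrcc2 probe differed by −0.17.

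**Figure D2:**
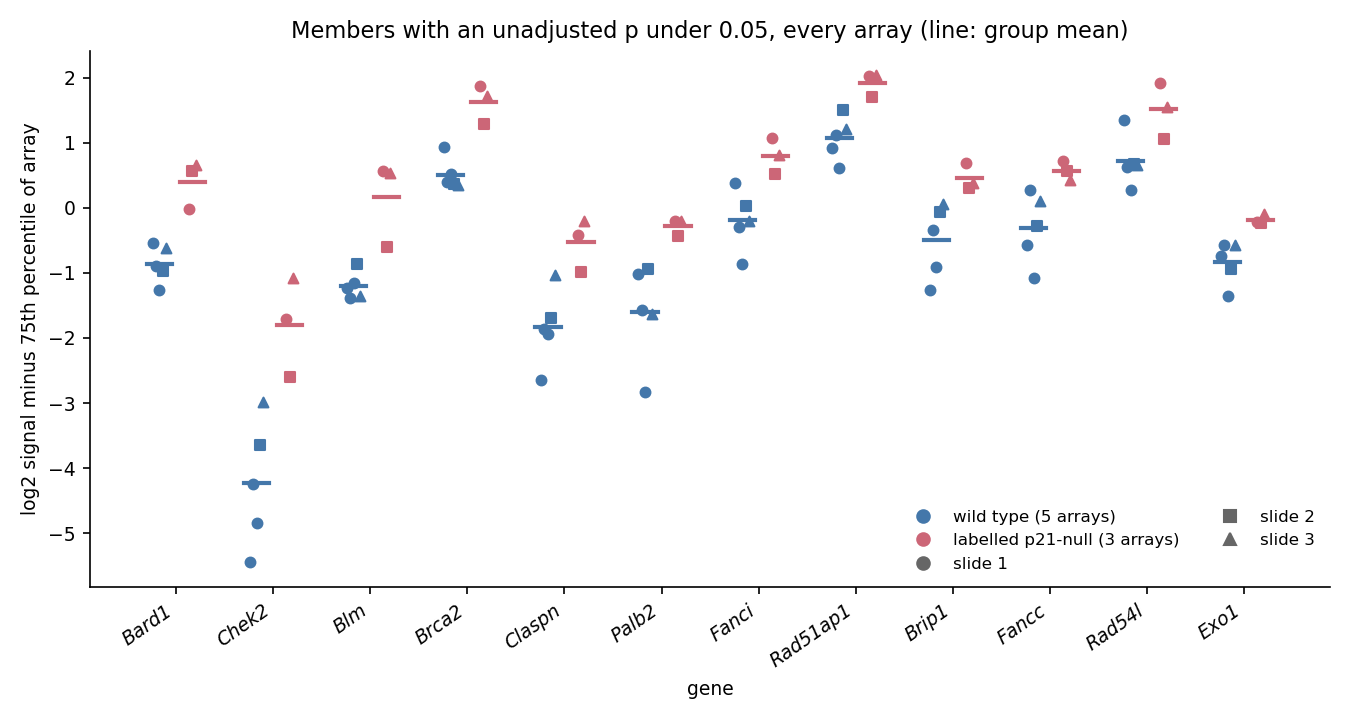
The log2 signal minus the 75th percentile of the array, on every array, for the 12 genes with an unadjusted limma p under 0.05, with wild type in blue, labelled p21-null in red, a line at each group mean and marker shape by slide. In 11 of the 12 genes the 3 red points lie above all 5 blue points; in Rad54l a blue circle stands above the red square.

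The Fanconi pathway repairs crosslinks between DNA strands: a core complex ubiquitinates the FANCD2-FANCI pair, which then calls in nucleases and recombination proteins. Fanci read 0.39, −0.29, −0.86, 0.03 and −0.21 in wild type and 1.08, 0.51 and 0.82 in the arrays labelled p21-null. Its groups did not overlap, labelled p21-null replicate 2 being closest to wild-type replicate 1, and the difference was 0.99 (SE 0.34; limma adjusted p = 0.383; exact permutation p = 0.0357). Its partner Fancd2 differed by 0.87 with a wider error (SE 0.55; limma adjusted p = 0.676).

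Brip1, the helicase that binds BRCA1, read −1.26, −0.34, −0.91, −0.06 and 0.07 in wild type and 0.69, 0.31 and 0.39 in the arrays labelled p21-null. The wild-type values spread widely but stayed below all 3 others, with a difference of 0.96 (SE 0.37; limma adjusted p = 0.423; exact permutation p = 0.0536). Fancc, of the core complex, read −0.58, 0.27, −1.08, −0.27 and 0.10 against 0.72, 0.56 and 0.42. Again no values overlapped, with a difference of 0.88 (SE 0.36; limma adjusted p = 0.456; exact permutation p = 0.0357); a further Fancc probe differed by 0.42. The core-complex genes Fanca and Fancb and the fork translocase gene Fancm differed by 0.32 (SE 0.46), 0.58 (SE 0.49) and 0.51 (SE 0.33).

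End joining showed no gene at an unadjusted p under 0.05. Prkdc, the catalytic subunit of DNA-PK, had the lowest p of the group. It read −2.93, −3.59, −2.67, −3.76 and −2.37 in wild type and −2.46, −2.58 and −2.23 in the arrays labelled p21-null. The latter were close together at the upper end of the wild-type range, and the difference was 0.64 (SE 0.38; limma adjusted p = 0.641). The Ku subunit genes Xrcc6 and Xrcc5 differed by 0.44 (SE 0.31) and 0.35 (SE 0.37), and Xrcc4, the scaffold of ligase IV, by 0.03 (SE 0.38).

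Lig4, encoding ligase IV itself, had the most negative difference of all 38 genes. It read −6.18, −3.96, −3.15, −2.50 and −4.01 in wild type and −4.07, −5.50 and −4.87 in the arrays labelled p21-null. The lowest value was a wild-type array, the groups overlapped, and the difference was −0.85 (SE 0.76; limma adjusted p = 0.791). It was also the only one of the 38 not well above background on every array, with 4 of 5 wild-type arrays and 2 of the 3 others above it.

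In mismatch repair, Msh6, whose protein recognises mispaired bases, read 1.97, 1.52, 1.44, 2.11 and 1.67 in wild type and 2.24, 2.12 and 1.95 in the arrays labelled p21-null. Its groups overlapped and differed by 0.36 (SE 0.28; exact permutation p = 0.125). Pms2, of the MutL complex, differed by 0.12 (SE 0.36) on its main probe and 0.63 on the other. Over the set, 10 genes had more than 1 probe, and of their 11 further probes 8 had the sign of the main probe; the exceptions were in Atm, Trp53bp1 and Xrcc2.

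The errors set what could be seen. The standard error of a difference had a median of 0.36 over the 38 genes, against 0.43 over all features. For 11 genes the upper end of the 95% interval lay under 1, so a 2-fold higher level was outside it. These included Atr (up to 0.53), Chek1 (up to 0.78), Rnf8 (up to 0.45) and Trp53bp1 (up to 0.82). For Brca1 (up to 3.25) and Fancd2 (up to 2.12) the interval held larger values.

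Other repair and checkpoint genes, some of them from repair routes outside the roles listed above, had a lower median difference. It was not tested against that of the 38. Of 86 further repair and checkpoint genes, all measured, 61 had a positive difference and 25 a negative one, with a median of 0.26. At an unadjusted p under 0.05 there were 12 higher and 0 lower, against 6.2% and 3.91% of all features. Among the higher ones were the helicase genes Wrn (1.58, SE 0.39) and Recql5 (0.84, SE 0.35), the nuclease-helicase Dna2 (1.48, SE 0.39), Rmi2 of the Bloom complex (1.42, SE 0.62), the polymerase genes Polq (1.26, SE 0.41) and Polh (1.38, SE 0.60), the clamp gene Hus1 (1.18, SE 0.42), the mismatch gene Pms1 (1.09, SE 0.40), the fork factor Tipin (1.09, SE 0.41), Rpa2 of replication protein A (0.80, SE 0.32) and the ligase gene Lig1 (0.71, SE 0.28). The adjusted p-values of the 12 in limma ran from 0.288 to 0.485.

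On the negative side the lowest p-values belonged to Faap100 (−0.60, SE 0.35), Rev3l (−0.54, SE 0.32), Usp28 (−0.48, SE 0.32), Ercc1 (−0.45, SE 0.31) and Ercc4 (−0.36, SE 0.31), none under 0.05. Ercc1 and Ercc4 encode the partners of a nuclease that cuts beside bulky lesions.

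The differences varied in size between slides. The median difference of the 38 genes was 0.80 on slide 1 (3 wild-type arrays and 1 labelled p21-null), 0.20 on slide 2 and 0.32 on slide 3 (1 of each). Positive differences numbered 30, 24 and 33 of 38. All 12 genes were positive on every slide, which for 11 of them follows from groups that did not overlap over all arrays. Chek2 differed by 3.14, 1.04 and 1.90, Bard1 by 0.88, 1.54 and 1.28, and Blm by 1.82, 0.27 and 1.89. Of the 38 genes 19 (50%) were positive on all 3 slides, against 15.8% of features measured on every array, and 1 (2.63%), Atr, was negative on all 3, against 15.8%. These counts go by sign alone and include values near 0. Atr differed by −0.023, −0.59 and −0.0039 on slides 1, 2 and 3, and Mre11a by 0.0013 on slide 3.

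**Figure D3:**
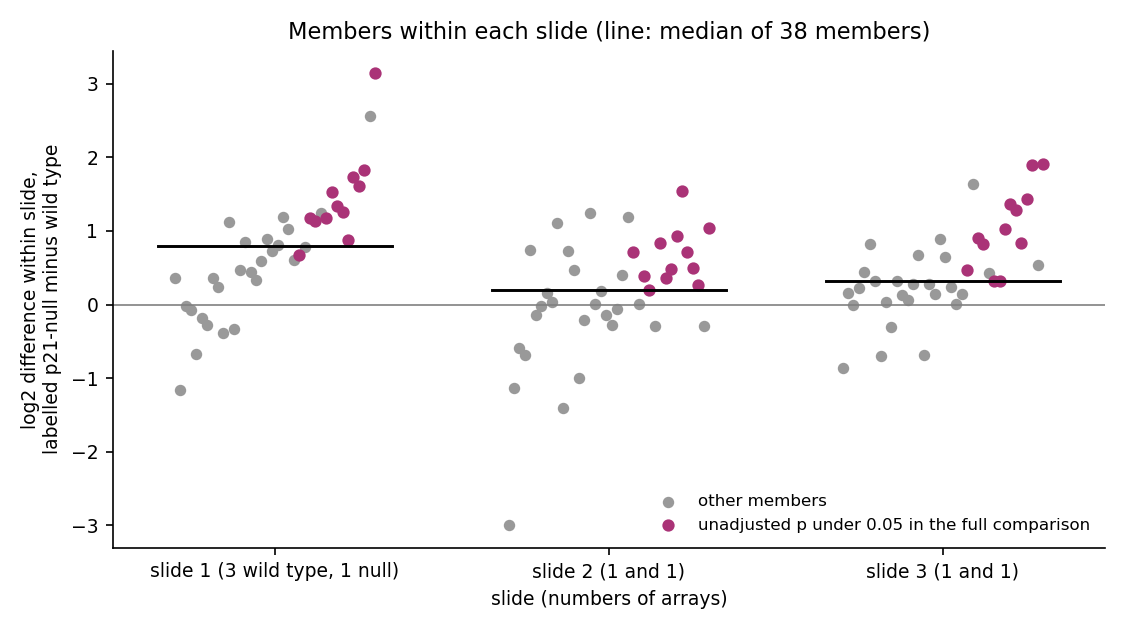
The log2 difference of each of 38 genes within each slide, labelled p21-null minus wild type, with points placed from left to right by the difference over all arrays, the 12 genes of unadjusted p under 0.05 in purple and a line at the median. The medians are 0.80, 0.20 and 0.32. Every purple point lies above 0, which for 11 of the 12 genes follows from groups that did not overlap over all arrays.

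Single arrays weighed on these values. Labelled p21-null replicate 2 was the lowest of its 3 arrays for 25 of the 38 genes, where it was the lowest for 36.9% of features. Wild-type replicate 3 was the lowest of 5 for 16 genes, against 24.8% of features. Without labelled p21-null replicate 1 the count of genes higher at an unadjusted p under 0.05 was 6, against 4.83% of all features. It was 7 without labelled p21-null replicate 3 (2.97% of all features) and 8 without wild-type replicate 3 (5.35%). With all arrays the share of all features was 6.20%. Without labelled p21-null replicate 2 the genes whose groups did not overlap numbered 19. With fewer arrays any feature separates more easily, and the share of all features under this setting is not given here.

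Proliferation genes also had higher mean signals under the p21-null label. The mean of the 38 repair genes was −0.79, −0.89, −1.06, −0.52 and −0.59 in wild type and −0.15, −0.39 and −0.11 in the arrays labelled p21-null. For 30 proliferation genes it was 1.68, 1.31, 1.01, 1.59 and 1.85 against 2.29, 1.86 and 2.44. Wild-type replicate 3 was lowest in both lists, and labelled p21-null replicate 2 was the lowest of its group. The highest wild-type array was replicate 4 for the repair genes and replicate 5 for the proliferation genes. All 30 had a positive difference (median 0.60), 9 at an unadjusted p under 0.05, against 6.2% of all features. The 9 included the helicase loader Cdc6 (1.62, SE 0.32), Cdc45 (1.20, SE 0.33), Mki67 (1.12, SE 0.32) and the cyclin gene Ccna2 (1.21, SE 0.36).

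Markers of liver and of red blood cells had larger median differences between the groups. Wild-type replicate 3, the lowest for the repair genes, stood at 1.48 for liver markers, where replicate 2 was lowest at −0.70. In the arrays labelled p21-null, replicate 2 was the lowest for both marker lists, as for the repair genes. How far the lists follow each other was not tested. All 19 liver markers had a positive difference (median 2.53), 18 at an unadjusted p under 0.05, and their mean ran from −0.70 to 3.097 in wild type and from 2.90 to 4.27 in the arrays labelled p21-null. Of 22 erythroid markers 21 were positive (median 2.16), 17 at that level, with means from 0.18 to 2.47 against 2.70 to 3.54. Every liver and erythroid marker was well above background on all 8 arrays, so none was absent from wild type. Of 19 macrophage markers 15 were positive, 12 at that level. Over all features 6.2% were higher at that level.

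Tubule markers were more often negative. Of 16, 5 were positive and 11 negative (median −0.67), and 13 were well above background on all 8 arrays, among them Pax2, Pax8 and Lhx1; Ret was not so on any array labelled p21-null. Wt1, of the nephrogenic and gonadal mesoderm, differed by −1.33 (SE 0.40; limma adjusted p = 0.325). Of 18 neural markers 17 were negative, 4 at an unadjusted p under 0.05, against 3.91% of all features. Of 17 stromal markers 14 were negative.

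With each array's mean of a list as a covariate in limma, the differences of the repair genes were smaller. Their median was 0.35 with the liver mean, 0.40 with the erythroid mean and 0.19 with the proliferation mean, and 26, 28 and 25 of 38 genes were positive. At an unadjusted p under 0.05 there were 1, 0 and 0 genes higher, against 0.84%, 0.70% and 0.66% of all features. All 12 genes that had reached that level kept a positive difference under each covariate, with medians of 0.96, 0.93 and 0.54, and Chek2 stood at 1.51, 1.79 and 1.27. Since the 12 were picked by their p-values on these same arrays, the kept sign is partly built in and is only a description. Fanca, Fancb, Fancd2 and Brca1 turned negative with the proliferation mean. The list means themselves differ by label, so the label and the levels of these lists cannot be told apart by such a fit.

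**Figure D4:**
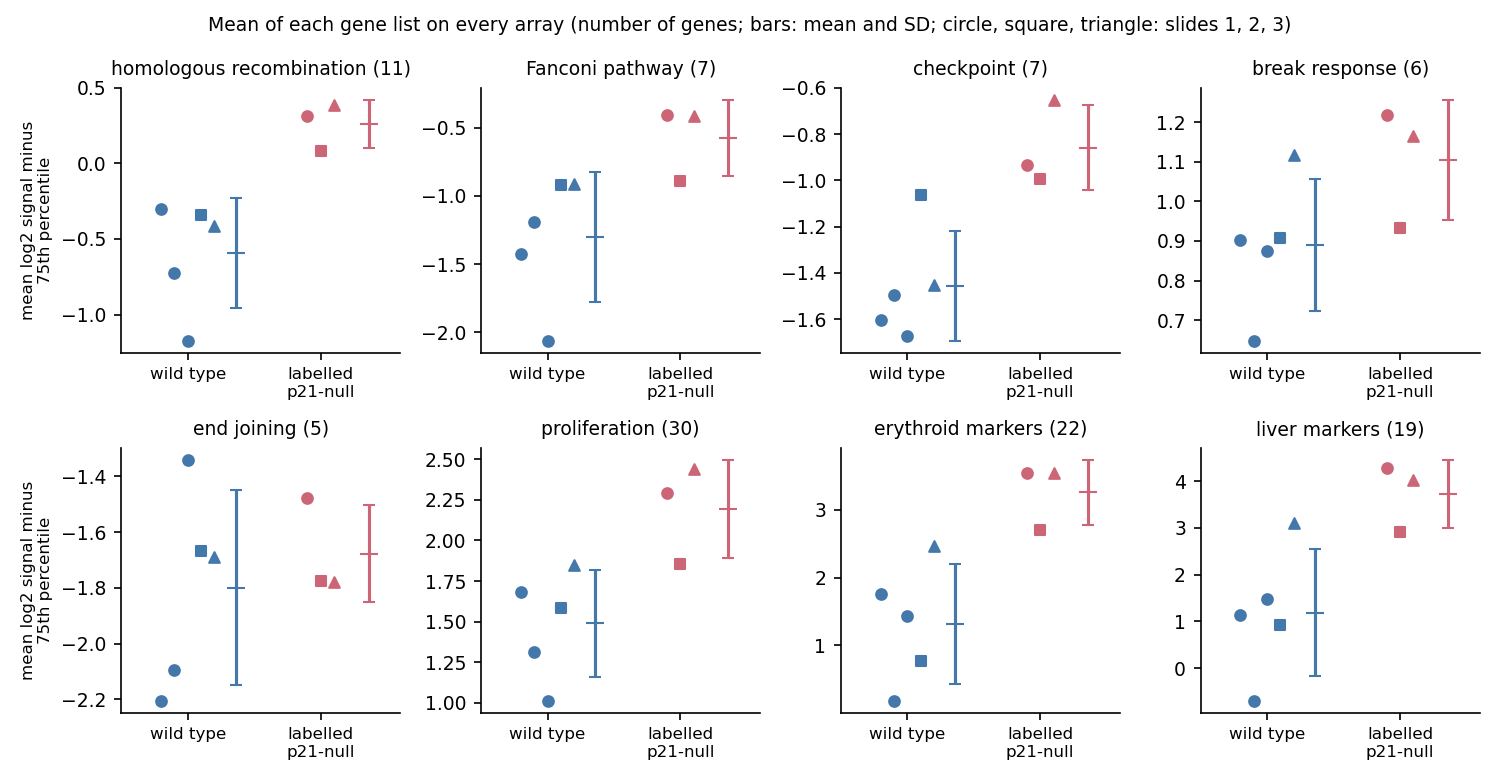
Mean log2 signal minus the 75th percentile for 8 gene lists on every array (panel titles give the number of genes), with wild type in blue, labelled p21-null in red, bars for the group mean and SD, and circles, squares and triangles for slides 1, 2 and 3; each panel has its own scale. The repair lists, proliferation genes and blood and liver markers share the low square of labelled p21-null replicate 2, except for end joining, where it lies level with the triangle.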

How the data were processed

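Each deposited scanner file holds 1 Agilent 1-colour array of 62976 spots. Per the file headers, Feature Extraction 10.7.3.1 made the processed intensity, which is corrected for background. The authors also deposited a table of log2 values, made with limma per the submitters' processing notes; its column medians were 9.26, and it correlated at 0.999956 or higher with log2 values after normexp and quantile scaling of the scanner intensities. Probes were named by accession through RefSeq (GRCm38.p6; 26056 of 55681 had a symbol).

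From the log2 of the processed intensity the 75th percentile of its array, over spots that are not controls, was subtracted. Spots marked as outliers were left out, probes well above background on at least 3 of 8 arrays were kept, and the brightest probe stood for a gene. The comparison used limma 3.58.1 under R 4.3.3 (lmFit, eBayes; no covariate) and Benjamini-Hochberg adjustment over 33627 features and a threshold of 0.05. Single genes were also tested by exact two-sided permutation of 56 splits. The method was tested on simulated data.

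The genes and lists were chosen with earlier results of these data known, and the 12 genes were picked by their p-values, so their values under other settings are descriptions. All listed genes could be named; values per array are given for those with an unadjusted p under 0.05, the lowest p of each role group and the largest negative differences. Of other repair genes those with an unadjusted p under 0.05, or the 5 of smallest p in a direction, were named (1 is not reported here), and of other lists up to 4 of smallest p; tubule markers named for their detection were chosen after their values were seen. Alternatives were other scalings, normexp correction with an offset of 50 on median intensities (a mean intensity was not used here), filters, probe rules, slide and replicate blocks, array weights, the deposited table, list means as covariates and leaving out each array.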

Additional observations from a re-analysis of the deposited data

Results flagged for a closer look

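In 3 genes 1 wild-type array stood far from the other 4 by Dixon's criterion for 5 values, which flags about 1 group in 20 by chance; 47 gene and list values were examined. Atm read −1.004 in wild-type replicate 4, with the next array at −2.65. Nbn read 0.0435 in wild-type replicate 5, with the next at −0.89. Fancb read −4.45 in wild-type replicate 3, with the next at −2.90.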

How the results depend on the processing

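Features past the adjusted threshold numbered 3 with normexp correction, 13 with array weights (4.02 for labelled p21-null replicate 3, 0.518 to 1.33 for other arrays) and 0 to 1 on leaving out arrays, 1 of them without wild-type replicate 4. None of these settings put a repair gene past it: their smallest adjusted p over all settings was 0.0552. Genes higher at an unadjusted p under 0.05 numbered 1, 0 and 0 with the liver, erythroid and proliferation covariates. The shares of all features were 0.84%, 0.70% and 0.66%. On leaving out arrays they numbered 6 to 12, against 2.97% to 7.03% of all features. Genes lower numbered 0 to 1, the 1 being Lig4 without wild-type replicate 1, where 4.50% of all features were lower. Genes whose groups did not overlap numbered 11 to 19 on leaving out arrays. Fewer arrays separate more easily, so these counts are not comparable with that over all arrays. The median difference was 0.190 with the proliferation covariate and 0.352 to 0.691 otherwise. Replicate numbers did not pair the samples (correlations of deviations 0.0677, −0.0858 and −0.0733). With the replicate block 10 genes were higher, 9 of them among the 12, against 6.79% of all features, and 32 were positive. With slide as a fixed block 9 were higher, against 5.64% of all features.

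The sign was the same under every alternative run for 19 of 38 genes, the 12 among them: 23 alternatives each, or 22 for Lig4, which the filter on all 8 arrays left out. For the 12, picked by their p-values on these same arrays, a steady sign is partly built in. Signs that turned, the cause of which was not tested, were as follows. With the erythroid covariate Trp53bp1 was −0.0724, Pms2 −0.106, Xrcc6 −0.294, Prkdc −0.448, Nbn −0.462, Xrcc2 −0.509, Rad50 −0.604, Chek1 0.216 and Atm 0.508. With the liver covariate Xrcc5 was −0.00449, Fanca −0.0138, Xrcc6 −0.133, Trp53bp1 −0.167, Prkdc −0.197, Pms2 −0.215, Rad50 −0.354, Nbn −0.479, Xrcc2 −0.576, Atm 0.0529 and Chek1 0.489. With the proliferation covariate Xrcc3 was −0.00221, Rad50 −0.0130, Mre11a −0.0473, Xrcc6 −0.0654, Nbn −0.365, Xrcc2 −0.471, Fancd2 −0.543, Fancb −0.715, Fanca −0.907, Brca1 −1.11, Atr 0.105 and Chek1 0.313. Xrcc4 was −0.163 with the replicate block, and Pms2 −0.0352 and Chek1 0.0447 with slide as a fixed block. On leaving out arrays Xrcc2 ranged from −0.145 to 0.540, Atm from −0.834 to 0.0937, Xrcc4 from −0.191 to 0.220, Rad54b from −0.154 to 0.502, Pms2 from −0.0947 to 0.402 and Chek1 from −0.269 to 0.102.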
